A study of Caenorhabditis elegans with 18 samples.

Results

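The comparison of WAGO-3 immunoprecipitates (IP) with their inputs rests on 6 of the 18 small RNA libraries of the series, 3 WAGO-3 IP and 3 WAGO-3 Input libraries lettered A, B and C, chosen by strain and by the IP or input label. It asks which small RNA loci were held by the protein above or below their level in the extract. The animals of both groups were whole Caenorhabditis elegans at the L4 stage with the genotype 1xFLAG::WAGO-3, that is, WAGO-3 fused to a short epitope tag, raised at 15 °C on peptone-rich plates with NA22 bacteria. RNA of the IP libraries was recovered with anti-FLAG beads. Input RNA was purified from the protein extract before the IP. The other libraries of the series, with the same pairing of IP and Input, came from 1xFLAG::WAGO-1 animals and from 1xFLAG::WAGO-1 animals carrying dpf-3{delta}, a deletion of a dipeptidyl peptidase gene. Neither WAGO-3 group carried that deletion. Where the lettered libraries came from is not stated, so p-values measure the spread between these libraries, which may be technical. No IP from an untagged strain was analysed here, and the labels say that only input RNA went through a kit that enriches small RNAs. Binding to WAGO-3, background on the beads and this difference in preparation therefore cannot be told apart.

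WAGO-3, the product of the gene ppw-2, and WAGO-1 belong to the worm-specific Argonautes. These proteins carry secondary small RNAs called 22G RNAs, which RNA-dependent RNA polymerases copy from messenger RNAs and which are therefore antisense to the genes they are counted under. 22G RNAs guide silencing of transposons, pseudogenes and foreign sequences in the germ line, with piRNAs bound by PRG-1 as one of their triggers, while another Argonaute, CSR-1, carries 22G RNAs against expressed germline genes. WAGO-3 is known for its part in inheritance through sperm, in which it is kept in PEI granules. A count below is a count of small RNA reads at a locus and not a level of messenger RNA, and sense reads were not separable from antisense reads.

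The counted features were 20134 genes and 55259 intervals without a name of their own. After the filter on low counts 11648 features were tested, 9869 of them genes and 1779 of them intervals. The filter took in all 18 libraries, so a feature with almost no WAGO-3 IP read was tested only through reads in other libraries. The same holds for a feature with almost no WAGO-3 Input read, which can favour a higher call. Of the tested intervals 913 overlap a RefSeq gene other than a piRNA gene. The WAGO-3 IP libraries held between 2206087 and 3706143 counts in features, and the Input libraries held between 212387 and 305688, so that 1 read weighs more in the Input. Of all counted reads, 34.6%, 34.6% and 34.9% lay in no feature in the IP libraries, against 74.8%, 68.6% and 70.6% in the Input libraries. This share did not overlap between the groups (exact two-sided permutation test, p = 0.1, the smallest that 3 against 3 libraries allow). Values per library are counts per 1000000 (CPM) of a library size scaled by TMM factors, which were 0.434 to 0.449 in the IP libraries and 1.32 to 1.42 in the Input libraries. Scaling by total counts in features instead lowers the median log2 fold of all features by 1.62. A feature is called here higher or lower only where the quasi-likelihood test of edgeR, with p-values adjusted after Benjamini and Hochberg, called it in the same direction on both scales, and log2 folds of IP over Input are given on the TMM scale.

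A minority of loci held most of the small RNA counts of the IP. On both scales 1185 features were higher in the IP, 10.2% of those tested, and 3122 were lower, 26.8% of those tested. The 1185 higher features took 73.2% ± 0.197 of the feature counts in the IP and 43.1% ± 0.459 in the Input (SD, n = 3 each). The 3122 lower features took 1.48% ± 0.0257 of the IP counts and 22.03% ± 0.182 of the Input counts. These shares describe the features chosen by the call and add no test. With TMM alone 4048 features were higher, 34.8% of those tested, and with total counts alone 6063 were lower, 52.1%. For 378 features the call was higher on the TMM scale and lower on the total-count scale, so their direction relative to the Input depends on the scale. The 100 features with the most counts in the IP held 53.1% ± 0.0205 of the IP counts. The 100 with the most counts in the Input, ranked separately and not the same set, held 43.1% ± 0.223 of the Input counts.

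**Figure D1:**
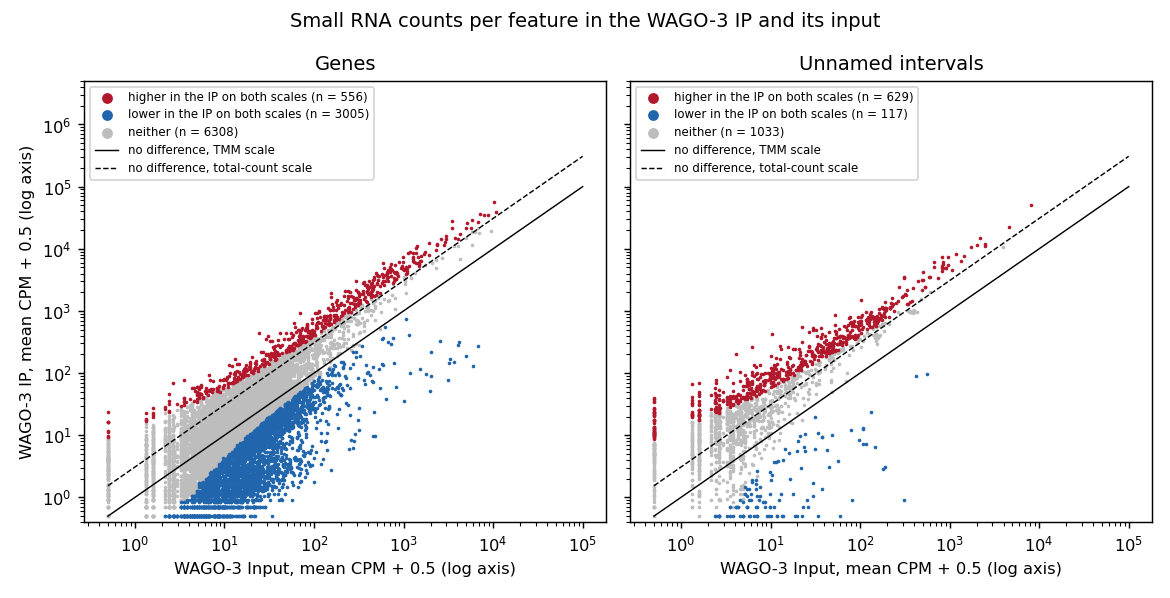
Mean CPM + 0.5 per tested feature in the WAGO-3 IP (vertical, log axis) against the WAGO-3 Input (horizontal, log axis), for genes on the left and unnamed intervals on the right, with lines of no difference on the TMM scale (solid) and the total-count scale (dashed). Red points are the 556 genes and 629 intervals higher in the IP on both scales, blue points the 3005 genes and 117 intervals lower in the IP.

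Most of the higher features were intervals and most of the lower ones were genes. Of the 9869 genes, 556 were higher in the IP (5.63%) and 3005 were lower (30.4%), with a median log2 fold of -0.13. Of the 1779 intervals, 629 were higher in the IP (35.4%) and 117 were lower (6.58%), with a median log2 fold of 2.32, or 2.17 with the intervals that had no count in a group set at the bound their floor allows. Among genes, the share called higher was larger in bins of higher abundance over the 18 libraries. It was 0.299% of the 3676 genes with a mean under 10 CPM, 7.32% of the 1844 genes with 30 to under 100 CPM, and 64.9% of the 134 genes with 1000 CPM or more. The share called lower ran the other way, with 33.3% of the genes in the lowest of these bins and 14.9% of those in the highest. The median log2 fold moved with abundance too, being -0.89 in the lowest bin and 2.05 in the highest. The means behind the bins include the WAGO-3 IP libraries that are compared. A gene high in these libraries thus lands in a higher bin, and the trends are partly built in.

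**Figure D2:**
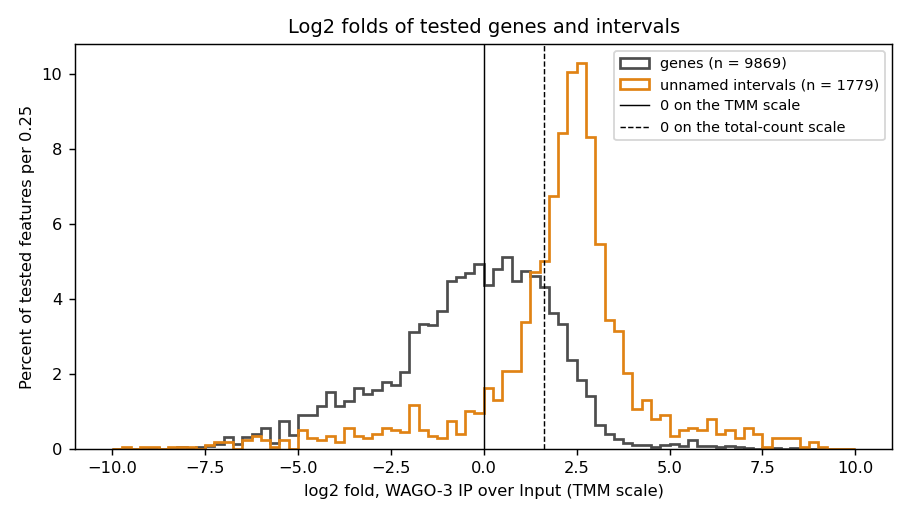
Distribution of the log2 fold of WAGO-3 IP over Input on the TMM scale (horizontal), as percent of tested features per bin of 0.25 (vertical), for genes (grey) and unnamed intervals (orange), with 0 on the TMM scale (solid line) and on the total-count scale (dashed line). Intervals centre on a median of 2.32 and genes on -0.13.

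The genes with the largest share of IP counts were of several kinds, among them the small RNA pathway gene eri-6 and a linker histone gene. Among all features an interval, V:17132108-17137381, came second to F15D4.5, with 2.26% of the IP counts and 1.12% of the Input counts on average. F15D4.5 (II:13245376-13247774 in WBcel235, the assembly also called ce11), a gene known as a target of 22G RNAs, held 2.48%, 2.48% and 2.50% of the feature counts of IP libraries A, B and C, against 1.34%, 1.46% and 1.38% in the Input libraries. No IP library overlapped an Input library, and the log2 fold was 2.47 ± 0.07 (SE, adjusted p = 5.29e-66). C04G2.10 (IV:10115442-10118118) held 1.78%, 1.72% and 1.75% of the IP counts, against 1.51%, 1.48% and 1.46% of the Input counts, with a log2 fold of 1.87 ± 0.07 (adjusted p = 1.17e-55). eri-6 (I:4457375-4469458), which encodes a helicase needed for the 26G RNAs of the Argonaute ERGO-1, held 1.57%, 1.59% and 1.57% of the IP counts, against 0.974%, 0.962% and 1.02% of the Input counts (log2 fold 2.32 ± 0.07, adjusted p = 9.4e-65). The span of eri-6 also holds the genes sosi-1 and T01A4.9, whose reads may be mixed with it. All 3 loci were higher in the IP without overlap between libraries.

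The next genes by share followed the same order of groups. The feature WBGene00009511, which the annotation used here does not name, had 1.59%, 1.57% and 1.54% of the IP counts, against 1.101%, 1.08% and 1.098% of the Input counts (log2 fold 2.16 ± 0.07, adjusted p = 3.57e-62). W09C5.12 (I:13661522-13662332), which overlaps a pseudogene, averaged 1.52% ± 0.035 of the IP counts and 1.21% ± 0.0358 of the Input counts (SD, n = 3 each), with a log2 fold of 1.96 ± 0.07. rnh-1.3, a homologue of RNase H, which cuts RNA paired with DNA, averaged 1.26% ± 0.0237 in the IP and 0.790% ± 0.0394 in the Input, with a log2 fold of 2.31 ± 0.07. sqst-1, the worm member of the p62 family of autophagy receptors, averaged 1.18% ± 0.0102 in the IP and 0.931% ± 0.0061 in the Input, with a log2 fold of 1.98 ± 0.07. Among these abundant genes the linker histone gene his-24 (X:14490094-14491119) had the largest fold. It held 1.17%, 1.23% and 1.31% of the IP counts, against 0.447%, 0.513% and 0.463% of the Input counts (log2 fold 3.01 ± 0.08, adjusted p = 2.81e-71).

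The largest folds among genes came from loci with few or no Input reads. Loci with almost no Input read passed the filter on low counts through other libraries, which can favour a higher call. W08E12.8 (IV:3292371-3294659), which overlaps pugs-9, had 21.04, 20.2 and 28.2 CPM in the IP libraries and no read in any Input library, 94 against 0 counts. Set against a floor of 3 counts over the Input group its IP level was higher by at least 7.56-fold (adjusted p = 6.31e-08). nhr-124, a nuclear hormone receptor gene, had 74.0, 66.8 and 67.6 CPM in the IP, against 3.32, 0 and 3.26 CPM in the Input. The ratio of its 292 to 2 counts was 35.2 after scaling (exact 95% interval 9.67 to 292, counting error only). T01A4.9, which lies inside eri-6, had 327 against 3 counts and a ratio of 26.3 (8.92 to 128). C07E3.9 had 190 against 2 counts and a ratio of 22.9 (6.26 to 191). For col-139, a cuticle collagen gene with more Input reads, the IP libraries had 423, 392 and 504 CPM, against 16.6, 32.2 and 22.8 CPM in the Input (log2 fold 4.14 ± 0.20, adjusted p = 3.76e-41). sdz-27, named as a SKN-1-dependent zygotic gene, averaged 91.8 ± 6.26 CPM in the IP and 6.30 ± 3.67 CPM in the Input (SD, n = 3 each), with a log2 fold of 3.93 ± 0.39.

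The largest folds in the other direction came from genes of which the IP held almost nothing. F38H4.6 had no read in the IP, against 19.9, 37.2 and 42.4 CPM in the Input, 0 against 34 counts, which puts it at least 47-fold lower in the IP (adjusted p = 1.29e-16). F18A12.2 had 0 against 22 counts and was at least 30.4-fold lower. mps-3, which encodes a subunit of a potassium channel, had 0 against 21 counts and was at least 29-fold lower. Genes with 1 or 2 IP reads followed. F55H12.3, which overlaps F55H12.4, had 2 against 55 counts, an Input-over-IP ratio of 114 (exact 95% interval 30.1 to 965). K12C11.5 had 2 against 44 counts, a ratio of 91.2 (23.8 to 776). cpz-2, a cathepsin Z gene that overlaps gcy-34, had 1 against 27 counts, a ratio of 112 (18.4 to 4.58e+03). The sperm genes spe-10, which encodes a palmitoyltransferase, and ssq-2, of a sperm-specific family, had the same 1 against 27 counts and the same ratio. msd-2, with a major sperm protein domain and an overlap with F44D12.16, had 2 against 43 counts, a ratio of 89.1 (23.2 to 759).

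**Figure D3:**
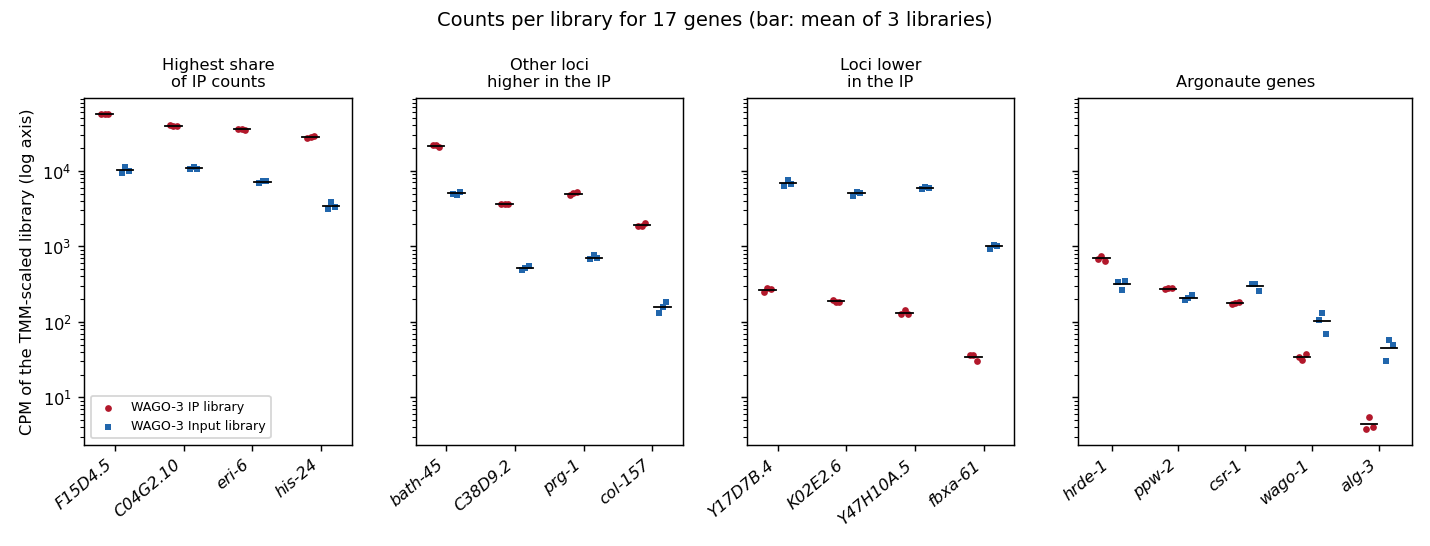
CPM of the TMM-scaled library (vertical, log axis) for 17 genes in the 3 WAGO-3 IP libraries (red circles) and the 3 WAGO-3 Input libraries (blue squares), with a bar at the mean of 3 libraries. The groups do not overlap for any gene drawn, and the IP is above the Input for his-24 and prg-1 and below it for Y47H10A.5 and alg-3.

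Small RNAs at genes of the Argonaute family went in both directions. Of 20 Argonaute genes counted, 18 were tested, of which 1 was higher in the IP and 10 were lower, against 5.63% and 30.4% of all genes, and their median log2 fold was -0.72. The one higher gene was prg-1 (I:7585329-7588367), which encodes the Argonaute that binds piRNAs. It had 4718, 5082 and 5197 CPM in the IP libraries, against 669.6, 761 and 692 CPM in the Input libraries. The groups lay far apart, with a log2 fold of 2.81 ± 0.09 (adjusted p = 1.39e-61). D2030.12 overlaps prg-1, and reads of the 2 cannot be separated. For hrde-1, the nuclear germline Argonaute, the values were 682, 748 and 638 CPM in the IP and 335, 260.4 and 343 CPM in the Input. Its log2 fold of 1.16 ± 0.10 on the TMM scale turned to -0.47 with total counts, so it was called in neither direction. The same held for ppw-2, the gene of WAGO-3 itself, with 272, 277 and 277 CPM in the IP and 196, 206 and 225 CPM in the Input (log2 fold 0.40 ± 0.12 on the TMM scale and -1.23 with total counts).

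Small RNAs at 10 Argonaute genes were lower in the IP. csr-1, whose product carries 22G RNAs of expressed germline genes, had 169.6, 179 and 185 CPM in the IP, against 315, 312 and 254 CPM in the Input (log2 fold -0.74 ± 0.13, adjusted p = 1.67e-07). wago-1 averaged 34.3 ± 3.03 CPM in the IP and 101 ± 30.5 CPM in the Input, with a log2 fold of -1.61 ± 0.22. For both genes every IP library was below every Input library. The paired Argonautes of the spermatogenesis 26G pathway were lower as well, alg-3 with 3.83, 5.52 and 4.04 CPM in the IP against 29.8, 57.0 and 48.9 CPM in the Input (log2 fold -3.33 ± 0.38, adjusted p = 5.51e-14), and alg-4 with a log2 fold of -4.18 ± 0.54. The microRNA Argonaute genes alg-1 and alg-2 had log2 folds of -2.58 ± 0.79 and -1.92 ± 0.59, from 6 and 14 IP counts. sago-1, a secondary Argonaute outside the germ line, had 1 against 18 counts, an Input-over-IP ratio of 74.6 (exact 95% interval 11.8 to 3.11e+03). wago-10 had a log2 fold of -2.41 ± 0.55. wago-5 had -3.10 ± 0.68, which lay between -3.71 without IP library C and -2.49 without IP library A. ppw-1, an Argonaute needed for RNAi in the germ line, was lower at -0.70 ± 0.21, but the call was lost without Input library B (-0.54, adjusted p = 0.0752). ergo-1, which overlaps pei-2, was called higher on the TMM scale alone, at 1.24 ± 0.40, and lost that call without Input library B (0.92, adjusted p = 0.0879). The primary RNAi Argonaute rde-1 at -0.48 ± 0.34, wago-4 at -0.17 ± 0.11 and sago-2 at -0.35 ± 0.26 did not pass the test on the TMM scale. rde-1 passed it without Input library C (-0.83) and wago-4 without Input library A (-0.30).

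Genes of the RNA interference machinery were called in both directions. In the list of RNA-dependent RNA polymerases, Dicer cofactors and mutator proteins, 36 of 37 genes were tested, 3 (8.33%) were higher and 7 (19.4%) were lower, against 5.63% and 30.4% of all genes, with a median log2 fold of 0.20 against -0.13 for all genes. Besides eri-6, the higher ones were rde-4 and sid-1. rde-4, the double-stranded RNA-binding partner of Dicer, had 468, 425 and 440 CPM in the IP, against 96.1, 114 and 88.1 CPM in the Input (log2 fold 2.14 ± 0.14, adjusted p = 1.27e-30). sid-1, a channel that imports double-stranded RNA, had 2826, 2861 and 2665 CPM in the IP, against 739, 791 and 776 CPM in the Input (log2 fold 1.85 ± 0.08, adjusted p = 8.95e-46). Neither gene had libraries that overlapped between the groups. The lower members were dcr-1, drh-1, drh-3, ego-1, rrf-3, rsd-6 and nyn-1. rde-11, a zinc-finger factor of RNAi, averaged 1196 ± 32.9 CPM in the IP and 481 ± 21.3 CPM in the Input, and its sign turned with the scale (1.31 ± 0.09 with TMM, -0.32 with total counts).

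Of 19 tested piRNA pathway genes, 2 (10.5%) were higher and 5 (26.3%) were lower in the IP, against 5.63% and 30.4% of all genes, with a median log2 fold of -0.11. The higher ones were prg-1 and tofu-2, a gene needed to make piRNAs. tofu-2 had 63.1, 57.6 and 54.5 CPM in the IP, against 6.63, 0 and 6.53 CPM in the Input. Its libraries did not overlap, and its log2 fold of 3.87 ± 0.46 (adjusted p = 3.64e-13) rested on 4 Input counts, with a value of 3.15 without Input library B. parn-1, which trims piRNA ends and overlaps frpr-15, had a log2 fold of 1.37 ± 0.08 with TMM and -0.27 with total counts. Of 21 tested germ granule genes, 1 was higher, prg-1 again, and 6 (28.6%) were lower, with a median of -0.09. The helicase genes glh-1, of the Vasa family, and znfx-1, of Z granules, turned sign with the scale (1.17 ± 0.12 and 0.98 ± 0.10 with TMM, -0.47 and -0.65 with total counts). pei-1, a core gene of the PEI granules in which WAGO-3 is kept in sperm, was lower. It had 0.638, 3.06 and 1.01 CPM in the IP, against 39.8, 17.4 and 16.3 CPM in the Input, with a log2 fold of -3.77 ± 0.59 (adjusted p = 1.49e-08), or -4.85 without IP library B.

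Loci known for their 22G RNAs split into 2 clear groups. Of 18 such loci, 5 (27.8%) were higher in the IP and 12 (66.7%) were lower, against 5.63% and 30.4% of all genes. R06C1.4 turned sign with the scale (0.93 ± 0.22 with TMM, -0.71 with total counts). The median log2 fold of the 18 loci was -3.69. The 5 higher loci were F15D4.5, bath-45, C38D9.2, C18D4.6 and C08F11.7. bath-45 (II:13123020-13125189), a gene of the BTB and MATH domain family known as a target of piRNA-triggered silencing, had 22212, 21745 and 20649 CPM in the IP, against 4992, 4761 and 5288 CPM in the Input (log2 fold 2.10 ± 0.07, adjusted p = 6.94e-58). C38D9.2 (V:17567150-17571739) had 3681, 3657 and 3637 CPM in the IP, against 487, 511 and 548 CPM in the Input (log2 fold 2.83 ± 0.09, adjusted p = 6.49e-63). The values of C18D4.6 and C08F11.7 did not overlap between groups either, with log2 folds of 2.59 ± 0.08 and 2.82 ± 0.09.

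Among the 12 lower loci were several of the most abundant small RNA sources of the Input. Y17D7B.4 (V:18776238-18776687) had 248, 280.1 and 274 CPM in the IP, against 6315, 7514 and 6636 CPM in the Input (log2 fold -4.67 ± 0.08, adjusted p = 4.57e-88). Y47H10A.5 (I:12095482-12097987) had 126, 144 and 125 CPM in the IP, against 5738, 6078 and 5980.1 CPM in the Input (log2 fold -5.48 ± 0.09, adjusted p = 1.14e-92). K02E2.6 (V:20380561-20382036), a known target of the ERGO-1 class of 26G RNAs, had 197, 185 and 183 CPM in the IP, against 4694, 5304 and 5116 CPM in the Input (log2 fold -4.74 ± 0.09, adjusted p = 1.54e-84). All IP libraries lay far below all Input libraries at these loci. Y37E11B.2 averaged 166 ± 9.96 CPM in the IP and 3328 ± 186 CPM in the Input, with a log2 fold of -4.33 ± 0.09. E01G4.5 and C44B11.6, 2 further ERGO-1-class targets, were also among the 12. F55C9.3 and F55C9.5, also lower, are members of a family of near-identical copies, and their separate values are uncertain.

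Most tested sperm genes were lower in the IP, where 30.4% of all tested genes were. Of 31 genes of the major sperm protein, the cytoskeletal protein that moves worm sperm, 29 were tested, none was higher and 28 (96.6%) were lower, with a median log2 fold of -3.67. With a minimum count of 30 the number lower was 15, because fewer genes were tested. These genes are near-identical copies, so single values are uncertain. Those with few IP reads passed the filter on low counts only through other libraries, which can favour a lower call. msp-76 had 4.46, 1.84 and 3.03 CPM in the IP, against 16.6, 49.6 and 42.4 CPM in the Input, with a log2 fold of -3.56 ± 0.44 (adjusted p = 3.33e-12). Of 54 tested spermatogenesis genes, 41 (75.9%) were lower, 2 (3.7%, against 5.63% of all genes) were higher and the median log2 fold was -3.55. spe-12, which encodes a membrane protein of sperm activation, had 22.3, 19.6 and 28.2 CPM in the IP, against 487, 335 and 591 CPM in the Input (log2 fold -4.34 ± 0.18, adjusted p = 1.59e-48). ssp-16, of a sperm-specific family, averaged 7.65 ± 3.099 CPM in the IP and 136 ± 12.3 CPM in the Input, with a log2 fold of -4.25 ± 0.25. The groups did not overlap for any of these genes. Summed over the spermatogenesis list the share of counts was 0.0520%, 0.0534% and 0.0512% in the IP, against 0.274%, 0.257% and 0.286% in the Input.

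The 2 sperm genes that went the other way were spe-47 and spe-41. spe-47, whose product has a major sperm protein domain, had 492, 486 and 470.1 CPM in the IP, against 109, 89.3 and 101 CPM in the Input (log2 fold 2.29 ± 0.14, adjusted p = 3.8e-33). spe-41, a cation channel of the TRP family needed by sperm at fertilization, had 478, 461 and 425 CPM in the IP, against 113, 96.7 and 78.3 CPM in the Input (log2 fold 2.25 ± 0.14, adjusted p = 1.16e-30). On the TMM scale both genes were several-fold higher in every IP library than in any Input library, while most of their list was lower. With total counts the log2 folds were smaller, 0.654 for spe-47 and 0.615 for spe-41.

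Genes of single somatic tissues gave few counts. For such low counts in whole worms, few cells of a type and little small RNA per cell cannot be told apart. Of 23 intestine genes, 10 were tested and all 10 of these were lower, against 30.4% of all genes. These 10 had few IP reads and passed the filter on low counts only through other libraries, so being lower was partly set by the filter. Their median log2 fold was -4.81, or -3.16 with the 3 genes at 0 in the IP set at their bound. Their list held 0.000332%, 0.000351% and 0.000544% of the IP counts, against 0.0207%, 0.0144% and 0.0117% of the Input counts. vha-6, which encodes part of the intestinal proton pump, had 1.28, 1.23 and 3.03 CPM in the IP, against 16.6, 14.9 and 13.1 CPM in the Input (log2 fold -3.09 ± 0.64, adjusted p = 1.16e-05). The peptide transporter gene pept-1 had a log2 fold of -3.95 ± 0.71. vit-6, a yolk protein gene, had 1 against 11 counts, and lys-4, a lysozyme gene, had 1 against 13. These values rest on few Input reads. None of the 9 tested neuron genes and 2 tested pharynx genes was called. Of 8 tested muscle genes only dim-1 was lower, from 5 IP and 7 Input counts, and it lost the call without IP library A or Input library B. The muscle myosin gene unc-54 had 168, 188 and 184 CPM in the IP and 33.2, 74.4 and 45.7 CPM in the Input, and the carboxypeptidase gene egl-21 of neurons averaged 51.7 ± 6.81 CPM in the IP and 14.3 ± 6.94 CPM in the Input. Both were higher on the TMM scale alone (log2 folds 1.75 ± 0.19 and 1.79 ± 0.34). Of 6 hypodermis genes, 2 were lower. With 1 library left out this count was 2 without IP library B, 0 without Input library A and 1 without any one of the other libraries.

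Cuticle collagens, the structural proteins of the worm's surface, were mostly higher where they were called. Of 156 collagen genes, 27 were tested, with a median log2 fold of 2.27. Of these 27, 10 (37%) were higher and 3 were lower, against 5.63% higher and 30.4% lower among all genes. The number lower depended on the setting. It was 6 with total counts alone and 1 with a replicate block. With a minimum count of 30 it was 1, where 14 collagen genes were tested. The share of counts of the collagen list was 0.617%, 0.616% and 0.630% in the IP, against 0.362%, 0.383% and 0.376% in the Input. col-157 (V:11484042-11485039) had 1865, 1853 and 2063 CPM in the IP, against 129, 156 and 183 CPM in the Input (log2 fold 3.62 ± 0.11, adjusted p = 1.35e-60). col-71 had 5307, 5223 and 5004 CPM in the IP, against 935, 1148 and 1083 CPM in the Input (log2 fold 2.29 ± 0.08, adjusted p = 9.69e-54). col-111, which overlaps psr-1, averaged 4866 ± 90.2 CPM in the IP and 1093 ± 52.3 CPM in the Input, with a log2 fold of 2.15 ± 0.08. The groups did not overlap for these 3 genes. Collagens and histones are families of similar sequence, so reads may be split between their members.

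Linker histones bind the DNA between nucleosomes, and core histones form the nucleosomes. Of 7 tested linker histone genes, 2 (28.6%) were higher and none was lower, against 5.63% and 30.4% of all genes. The linker histone list held 2.07%, 2.12% and 2.17% of the IP counts, against 1.46%, 1.52% and 1.44% of the Input counts, mostly from his-24 and hil-8. hil-3 had 1416, 1428 and 1429.5 CPM in the IP, against 209, 248 and 235 CPM in the Input (log2 fold 2.62 ± 0.10, adjusted p = 9.69e-52). hil-8, at 18238 ± 741 CPM in the IP and 6868 ± 274 CPM in the Input, turned sign with the scale (1.41 ± 0.07 with TMM, -0.23 with total counts). Of 67 tested core histone genes, 1 (1.49%) was higher and 5 (7.46%) were lower, both below the shares of all genes. The higher one, his-4, an H2B gene, averaged 78.8 ± 5.73 CPM in the IP and 14.6 ± 2.43 CPM in the Input, with a log2 fold of 2.42 ± 0.30. The number of lower core histone genes was 3 without IP library B, 2 without Input library B and 3 without Input library C.

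Among housekeeping genes, those of the proteasome were lower in the IP more often than the 30.4% of all genes, while the other lists lay near that share or below it. Of 33 tested proteasome genes, 23 (69.7%) were lower and none was higher, with a median log2 fold of -1.41. rpn-1, a subunit of the regulatory particle, averaged 29.3 ± 2.01 CPM in the IP and 85.8 ± 40.4 CPM in the Input (log2 fold -1.62 ± 0.23). rpn-11, the subunit that removes ubiquitin and overlaps pqn-48, had 14.7, 16.6 and 16.1 CPM in the IP, against 66.3, 102 and 78.3 CPM in the Input (log2 fold -2.41 ± 0.25, adjusted p = 4.42e-16). Of 80 cytosolic ribosomal protein genes, 23 (28.7%) were lower and none was higher, with a median of -0.53. rpl-42 was the clearest, at 26.6 ± 2.305 CPM in the IP and 92.8 ± 9.87 CPM in the Input (log2 fold -1.80 ± 0.22). Of 40 splicing genes, 14 (35%) were lower and none was higher, among them prp-8, a core spliceosome gene (log2 fold -1.23 ± 0.18). Of 69 mitochondrial ribosomal protein genes, 8 were lower, or 5 without Input library B, and 1 was higher.

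Among 70 translation factor and tRNA synthetase genes, 21 (30%) were lower, or 13 without Input library B, and 4 (5.71%) were higher, near the 30.4% and 5.63% of all genes. iff-2, an eIF5A gene, had 4496, 4502 and 4680.0 CPM in the IP, against 577, 724 and 714 CPM in the Input (log2 fold 2.76 ± 0.09, adjusted p = 2.13e-61). cars-1, the cysteinyl-tRNA synthetase gene, had a log2 fold of 2.65 ± 0.20 and overlaps Y23H5A.2. The other higher genes were aars-1 and iars-1, synthetases for alanine and isoleucine. Of 39 tested genes for germline RNA-binding proteins and oogenesis, 14 (35.9%) were lower and none was higher, including the yolk receptor gene rme-2, at 15.6 ± 4.12 CPM in the IP and 50.8 ± 7.70 CPM in the Input (log2 fold -1.72 ± 0.30), and larp-1 (-1.66 ± 0.21). Of 39 meiotic chromosome genes, 10 (25.6%) were lower and none was higher. Of 26 chromatin silencing genes, 6 (23.1%) were lower and none was higher, among them met-2, a histone H3 lysine 9 methyltransferase gene (log2 fold -0.98 ± 0.16). morc-1, which acts downstream of nuclear small RNAs, turned sign with the scale (0.86 ± 0.10 with TMM, -0.77 with total counts). The medians of these 3 lists, -0.19, -0.12 and -0.20, lay near the -0.13 of all genes, as their shares lower lay near 30.4%.

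Members of large and fast-evolving gene families were called in both directions. Of 130 tested F-box genes, whose products pick proteins for ubiquitination, 21 (16.2%) were higher and 28 (21.5%) were lower, against 5.63% and 30.4% of all genes, with a median log2 fold of 1.12. fbxb-85 had 4159.6, 4438 and 4152 CPM in the IP, against 686, 659.6 and 776 CPM in the Input (log2 fold 2.59 ± 0.08, adjusted p = 7.88e-60). fbxa-67, which overlaps a pseudogene, averaged 8069 ± 275 CPM in the IP and 1946 ± 106 CPM in the Input (log2 fold 2.05 ± 0.07). Others of the family were nearly lost from the IP. fbxa-61 had 36.3, 36.8 and 30.3 CPM in the IP, against 932, 1047 and 1015 CPM in the Input (log2 fold -4.83 ± 0.12, adjusted p = 1.6e-71). fbxa-52 averaged 9.31 ± 2.09 CPM in the IP and 474 ± 48.2 CPM in the Input (log2 fold -5.69 ± 0.18). Of 50 tested MATH and BATH genes, 8 (16%) were higher and 7 (14%) were lower. bath-13, one of the higher ones, averaged 1882 ± 47.04 CPM in the IP and 353 ± 48.8 CPM in the Input (log2 fold 2.41 ± 0.10).

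Of 62 tested nuclear hormone receptor genes, 6 (9.68%) were higher and 19 (30.6%) were lower, against 5.63% and 30.4% of all genes. nhr-15 (V:312721-323650), one of the higher ones, had 11252, 10873 and 11432 CPM in the IP, against 1273, 1547 and 1370.2 CPM in the Input (log2 fold 3.00 ± 0.08, adjusted p = 2.65e-70). Of 67 tested C-type lectin genes, 30 (44.8%) were lower and 1 was higher, clec-238, with a log2 fold of 2.13 ± 0.14. clec-166 had 1.91, 1.84 and 2.02 CPM in the IP, against 53.0, 79.4 and 75.04 CPM in the Input (log2 fold -5.15 ± 0.40, adjusted p = 5.89e-24). Of 50 genes of cytochrome P450, glucuronosyltransferase and glutathione transferase families, 22 (44%) were lower and 1 was higher. Lectin genes and genes of these families with few IP reads passed the filter on low counts only through other libraries. That can favour a lower call. cyp-29A2, a cytochrome P450 gene, had 1 against 19 counts, an Input-over-IP ratio of 78.7 (exact 95% interval 12.5 to 3.27e+03). Of 49 tested chemoreceptor genes, 4 were higher and 8 (16.3%) were lower, or 4 lower without Input library B. Of 20 tested pals genes, a family tied to the response to intracellular pathogens, 2 were lower. pals-26, which overlaps the pseudogene B0284.5, had 97.6, 88.3 and 48.4 CPM in the IP, against 4436, 2472 and 2401 CPM in the Input, so Input library A stood above the other Input libraries (log2 fold -5.25 ± 0.14, adjusted p = 8.34e-67).

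**Figure D4:**
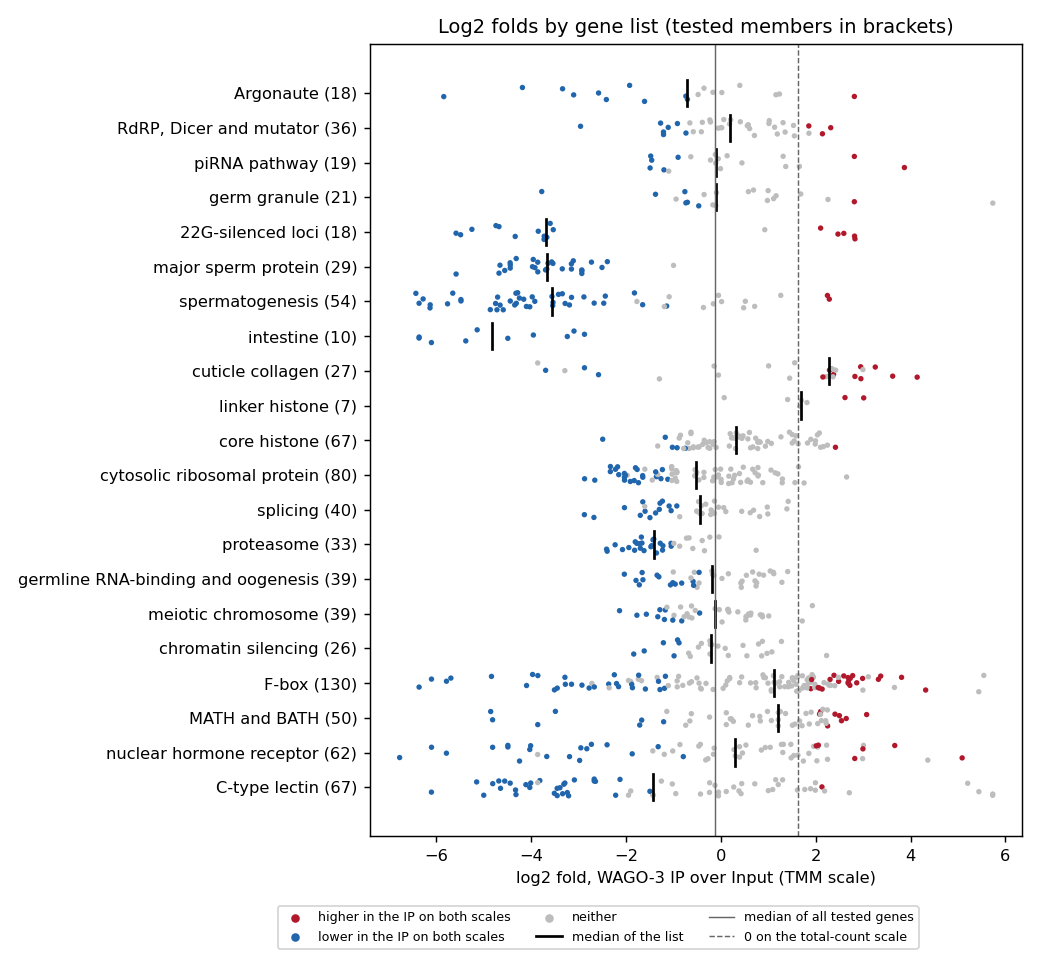
Log2 fold of WAGO-3 IP over Input on the TMM scale (horizontal) for each tested member of 21 gene lists (vertical, number of tested members in brackets), with a black bar at the median of the list, a grey line at the median of all tested genes and a dashed line at 0 on the total-count scale. Red members are higher and blue members lower in the IP on both scales; the medians of sperm, intestine and 22G-silenced lists are below -3 and that of cuticle collagens is 2.27.

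Unnamed intervals took a larger share of counts in every IP library than in any Input library. They held 23.0%, 23.0% and 22.9% of the feature counts in the IP, against 14.1%, 14.2% and 14.4% in the Input, a difference of 8.78 percentage points with no overlap (exact two-sided permutation test, p = 0.1, the smallest possible). The share called higher was 56.7% of the 496 intervals over 1000 bases and 20.5% of the 132 intervals over 50 and up to 100 bases. A run of 3 neighbouring intervals on the minus strand at V:17132108-17143636 held 3.41%, 3.42% and 3.35% of the IP counts, against 1.601%, 1.72% and 1.65% of the Input counts, a larger share of the IP than any single gene held. Their log2 folds were 2.64, 2.62 and 2.79. The first of them overlaps the gene Y102A5D.22 and the second overlaps mir-257 in the RefSeq annotation. V:17421682-17428709 on the same chromosome held 0.978%, 0.973% and 0.976% of the IP counts, against 0.622%, 0.655% and 0.635% of the Input counts, and overlaps no annotated gene.

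The largest folds of intervals came from stretches with no Input read at all. III:700622-700917 had 155 against 0 counts, which is an IP level above the Input by at least 12.5-fold, taking the floor of 3 counts. V:20258622-20258741 had 145 against 0 counts. IV:1336824-1337352 had 143 against 0 counts, a difference of at least 11.5-fold. They overlap elf-1, mdt-17 and F53H1.3. All 3 had reads in every IP library. With no Input read they passed the filter on low counts only through other libraries, so being higher was partly set by the filter.

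Tested intervals that overlap piRNA genes were mostly lower in the IP. piRNAs are short RNAs of their own genes, most of them on chromosome IV, and are bound by PRG-1. Of the 1779 tested intervals, 33 overlap at least 1 of the 15363 RefSeq piRNA genes. Strand was not used for this overlap, so the reads of these intervals need not be piRNAs. Of the 33 intervals, 28 were lower in the IP and 2 were higher, against 6.58% lower and 35.4% higher among all intervals. Their median log2 fold was -5.54, or -3.69 with the 15 intervals without an IP read set at their bound. The 28 lower intervals had 7, 12 and 4 counts in IP libraries A, B and C, against 158, 132 and 151 counts in the Input libraries, although the IP libraries were deeper. These sums describe the intervals chosen by their call. Intervals with few or no IP reads passed the filter on low counts only through other libraries, so being lower was partly set by the filter. All 33 tested intervals together held 0.211%, 0.21% and 0.207% of the IP counts, against 0.214%, 0.192% and 0.223% of the Input counts, so that the groups overlapped, and most of these IP counts came from 1 long interval, V:17146845-17157642. IV:17033431-17033736 had 0 against 58 counts and was at least 80.1-fold lower in the IP. IV:16901589-16901613, which also overlaps Y116A8C.1, had 2 against 81 counts, an Input-over-IP ratio of 168 (exact 95% interval 45 to 1.41e+03). IV:6189598-6189640 had 0 against 23 counts and was at least 31.8-fold lower. Some lower calls rested on far fewer Input reads. IV:14497585-14497655 and IV:17134674-17134738 each had 0 against 2 counts and were at least 2.76-fold lower. With 1 library left out, 23 to 27 of the 33 intervals were lower, and with a minimum count of 30, 13 were, since fewer were tested.

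The 2 exceptions were looked up after their values were seen. V:17146845-17157642, near the run of intervals on chromosome V, had 4655, 4555 and 4391 CPM in the IP, against 951, 1118 and 1090.0 CPM in the Input. IV:16254069-16254628 had 182, 175 and 189.7 CPM in the IP, against 16.6, 7.44 and 22.8 CPM in the Input. Of 5 tested intervals that overlap small nuclear RNA genes, 3 were lower and none was higher, against 6.58% and 35.4% of all intervals. The 166 untested intervals that overlap piRNA genes held 351 IP and 62 Input counts in all.

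Where the WAGO-3 IP differs from the IP of 1xFLAG::WAGO-1 animals without dpf-3{delta} was tested as a difference of enrichments, the log2 fold of WAGO-3 IP over its Input minus that of WAGO-1 IP over its own Input. The 2 comparisons share no library. On both scales the enrichment was higher with WAGO-3 for 1132 features, 9.72% of those tested, and lower for 1750, 15% of those tested. Among genes 803 were higher (8.14%) and 1641 were lower (16.6%), and among intervals 329 were higher (18.5%) and 109 were lower (6.13%). Of the 1641 genes with lower enrichment, 393 were lower with WAGO-3 and higher with WAGO-1 on the TMM scale, and 403 were not called with WAGO-3 and higher with WAGO-1. Of the 803 genes with higher enrichment, 69 were higher with WAGO-3 and lower with WAGO-1. On the TMM scale 1450 features, 12.4%, had a higher enrichment with WAGO-3. That number was between 2311 and 2499 when any 1 of the 6 IP libraries was left out, as the median difference moved by 0.376 to 0.413, so the zero of this difference is less certain than its order.

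The largest differences concerned genes of several roles. nhr-229 (IV:17028931-17030594), a nuclear hormone receptor gene looked up after its values were seen, had 335, 335 and 315 CPM in the WAGO-3 IP, against 2549, 2507 and 2581 CPM in its Input, a log2 fold of -2.95 ± 0.08. With WAGO-1 its log2 fold was 2.02, a difference of -4.97 ± 0.11 (adjusted p = 6.85e-78). ndx-2, a nudix hydrolase gene, went the other way. It had 2498, 2395 and 2463 CPM in the WAGO-3 IP, against 345, 434 and 392 CPM in its Input (log2 fold 2.64 ± 0.09), and a log2 fold of -1.33 with WAGO-1, a difference of 3.98 ± 0.43 (adjusted p = 4.05e-14). T05G5.4, which overlaps T05G5.5, differed by 4.63 ± 0.49 and tofu-2 by 4.04 ± 0.75. The differences with the most negative values were those of C44C1.1, of cpna-1, a copine-family gene of muscle, of F18A12.2 and of valv-1. These genes had 0 to 2 WAGO-3 IP counts each, so their size is poorly known.

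Argonaute genes were called in both directions in this test too. The enrichment was higher with WAGO-3 than with WAGO-1 for ppw-2 (difference 2.18 ± 0.17, adjusted p = 4.85e-22), csr-1 (1.92 ± 0.18), wago-4 (1.52 ± 0.17), prg-1 (1.12 ± 0.12) and hrde-1 (0.54 ± 0.14). The call of hrde-1 was lost with all counted reads as the scaling (0.36, adjusted p = 0.111). It was lower with WAGO-3 for wago-5 (-5.69 ± 0.79, adjusted p = 1.01e-09), alg-2 (-4.09 ± 0.84), alg-1 (-3.30 ± 0.94), wago-10 (-2.24 ± 0.63), alg-3 (-1.98 ± 0.45) and alg-4 (-1.87 ± 0.67). For wago-5 and alg-2 the direction itself differed, with log2 folds of -3.10 and -1.92 with WAGO-3 and of 2.59 and 2.16 with WAGO-1. For csr-1 both were negative, -0.74 with WAGO-3 and -2.65 with WAGO-1. The value of alg-4 ranged from -2.26 to -0.72 with 1 of 12 libraries left out and lost its call in 6 of these.

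Several lists had members whose enrichment differed between the proteins. The 10 tested intestine genes had a median log2 fold of -4.81 with WAGO-3 and of -0.40 with WAGO-1, and 7 of the 10 had a lower enrichment with WAGO-3. C-type lectin genes had medians of -1.44 and 1.17, and 22 of 67 had a lower enrichment with WAGO-3. Major sperm protein genes had medians of -3.67 and -1.83, with 9 of 29 lower. Of 36 RNA-dependent RNA polymerase, Dicer and mutator genes, 14 had a higher enrichment with WAGO-3 and 1 a lower one, and of 19 piRNA pathway genes 8 had a higher one and none a lower one. The backgrounds for these counts are the 16.6% lower and 8.14% higher among all genes. The intestine genes, and members of the other lists with few WAGO-3 IP reads, were tested only through other libraries.

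**Figure D5:**
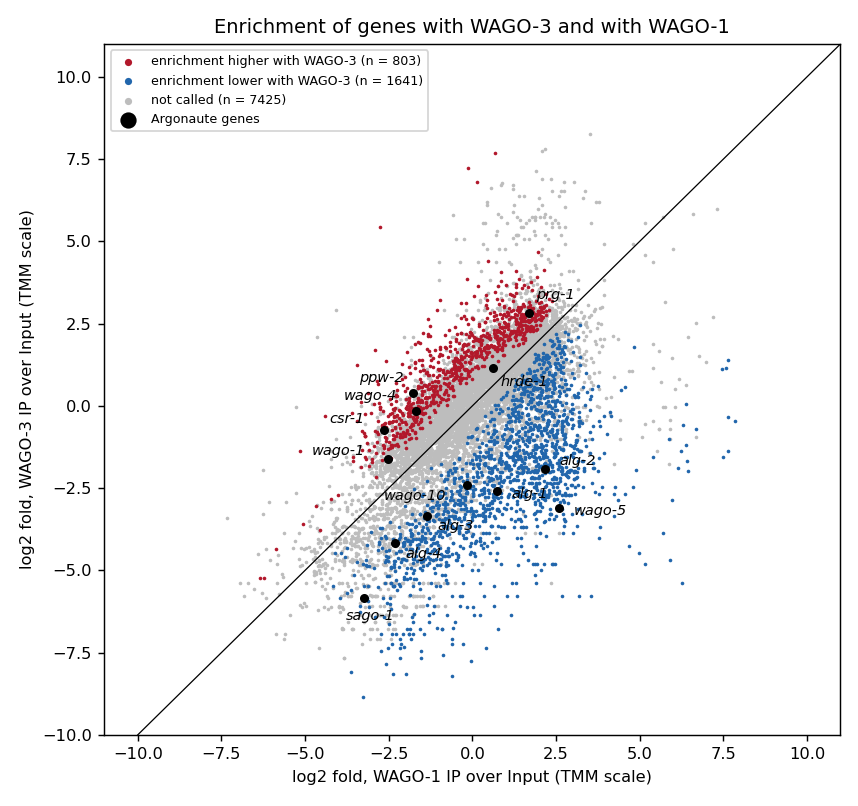
Log2 fold of WAGO-3 IP over its Input (vertical) against that of WAGO-1 IP over its Input (horizontal), both on the TMM scale, for the tested genes, with a line of equal folds and 13 Argonaute genes as black points. Red marks the 803 genes with a higher and blue the 1641 genes with a lower enrichment with WAGO-3; wago-5 and alg-2 lie below 0 with WAGO-3 and above 0 with WAGO-1.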

How the data were processed

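The authors deposited a table of raw read counts per gene and per unnamed interval for the 18 small RNA libraries. Per the labels' protocols, RNA was treated with a 5' polyphosphatase, libraries were made with a QIAseq miRNA kit, and a microRNA purification kit was used for inputs only. Tools named in the submitters' processing notes are HTSeq 0.11.2, Bowtie 1.2.3, cutadapt 2.3 and SAMtools 1.9, with the build ce11. How strand, multiply mapped reads and molecular identifiers were handled, and with which annotation, is not given in the sources used here. If reads with the same identifier were not merged, counts are not independent molecules, and intervals and floors cover counting error only.

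The 5 summary lines of the table (no feature, ambiguous and the like) were left out of library sizes and tests. Of the WAGO-3 IP counted reads 34.6% to 34.9%, and of the Input reads 68.6% to 74.8%, lay in no feature. edgeR 4.0.16 in R 4.3.3 fitted 1 mean per group over all 18 libraries (12 residual degrees of freedom, filterByExpr with a minimum count of 10, TMM factors, quasi-likelihood test, Benjamini-Hochberg adjusted p under 0.05 over all 11648 tested features). The fit was repeated with total counts as library sizes. The SE printed with a log2 fold or difference is its absolute value divided by the square root of the quasi-likelihood F statistic. It is unreliable for features with few or no counts in a group. Gene symbols and coordinates came from the RefSeq table of WBcel235, in which 19784 genes matched. Alternatives were all counted reads as library sizes, DESeq2 1.42.0 size factors and its Wald test, no filter, a minimum count of 30, the libraries of the strains compared only, a replicate block and leaving out each library. On simulated counts 20% of 2-fold and 60% of 4-fold changes among 11648 features were recovered, and 0.0262% of unchanged features were called. The simulated WAGO-3 IP and Input shared their composition and a fixed spread, apart from 100 features changed at each fold. The real groups differ in composition, so these rates are not error rates of the calls above.

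Whether the letters A, B and C pair the libraries is not stated, and the main fit did not pair them. The deviations of same-lettered IP and Input libraries from their group means correlated at -0.164, -0.074 and -0.007. With counting noise in shallow Input libraries, these values cannot show whether the letters pair. Replicates of the WAGO-3 IP differed by more than counting noise (chi-square per degree of freedom 1.23 to 1.39), as did Input replicates (1.14 to 1.44), so none was counted as a repeat of another. Named genes were the 12 per direction with the largest folds called on both scales, where 1 group averaged 20 CPM or more and no library of 1 group overlapped the other, the 6 intervals per direction by the same rule, the 8 genes and 4 intervals with the largest share of IP counts, up to 4 members per list with the smallest p, all Argonautes, and the 5 genes per direction with the largest difference from WAGO-1. Only some of these are printed, with exceptions within a list. Members and lists were chosen with earlier results of these data known.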

Additional observations from a re-analysis of the deposited data

Results flagged for a closer look

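The differences between the enrichment with WAGO-3 and that with WAGO-1 were called by the test of the difference itself, in 1132 features with a higher and 1750 with a lower enrichment with WAGO-3 on both scales. Genes with the largest higher enrichment with WAGO-3 were T05G5.4 at 4.63, tofu-2 at 4.04, ndx-2 at 3.98, C03B8.3 at 3.94 and F44E2.4 at 3.78 on the log2 scale. C03B8.3 lost its call without WAGO-1 Input library B. F44E2.4 was lower than its Input with WAGO-3 itself, a call that was lost without WAGO-3 Input library C.

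Genes with the largest lower enrichment with WAGO-3 were C44C1.1 at -8.94, cpna-1 at -7.81, F18A12.2 at -7.61, valv-1 at -7.01 and T21B6.3 at -6.90, all from 0 to 3 counts in the WAGO-3 IP. nhr-229, chosen with its values known, differed by -4.97. Among Argonaute genes the differences were ppw-2 at 2.18, csr-1 at 1.92, wago-4 at 1.52, prg-1 at 1.12 and hrde-1 at 0.54, and in the other direction wago-5 at -5.69, alg-2 at -4.09, alg-1 at -3.30, wago-10 at -2.24, alg-3 at -1.98 and alg-4 at -1.87.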

How the results depend on the processing

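Of 121 named genes and intervals, between 115 and 121 kept direction and side of the threshold in every setting that tested all of them except scaling by total counts, where 105 did. With a minimum count of 30, all 106 that were still tested did. Scaling by total counts left 1185 features higher and 6063 lower. It reversed hrde-1 to -0.47, ppw-2 to -1.23, ergo-1 to -0.39, rde-11 to -0.32, parn-1 to -0.27, glh-1 to -0.47, znfx-1 to -0.65, R06C1.4 to -0.71, hil-8 to -0.23 and morc-1 to -0.77. With all counted reads as the scaling ppw-2 was at -0.05, and intervals gained 10.9 percentage points of those reads. The TMM scale alone called 4048 features higher and 3122 lower. On that scale, leaving out 1 library gave 3586 to 3919 features higher and 2542 to 3048 lower. Leaving out 1 library also gave a difference of -38.01 to -34.9 percentage points in reads outside features and of 8.71 to 8.87 points in intervals. With all libraries, 1450 features had a higher and 1750 a lower enrichment with WAGO-3 than with WAGO-1 on the TMM scale. When 1 library was left out, these numbered 1142 to 2499 and 1272 to 1697. With only the libraries of the 2 strains 2466 were higher on this scale, and with a replicate block 2382. For IP against Input the replicate block gave 3435 higher and 3104 lower, again with TMM. Calls on both scales were not recounted in these settings. Counts of list members with 1 library left out are on the TMM scale too. The causes were not tested. Input depth limits genes with few reads: 1 group's floor of 3 counts equals 2.97 CPM in the Input and 0.716 CPM in the IP.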
